A study of Mus musculus with 6 samples.

Results

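The nuclear genes of mitochondrial complex I were examined in RNA sequencing of mouse oocytes matured in culture without or with metformin. The set comprised 42 genes named by a fixed list, 35 encoding subunits and 7 encoding assembly factors, among the 55487 genes of the deposited table, and all 42 were found by symbol. There were 3 control and 3 metformin libraries, both from the same kind of culture. Females had received 10 IU of pregnant mare serum gonadotropin, immature oocytes at the germinal-vesicle stage were taken 46 to 48 h later and freed of cumulus cells, and M16 culture under oil lasted 16 h, until the second metaphase. The series title names aged mice, and the labels give neither an age nor a strain. The protocol lists 10, 20 and 50 μM metformin and does not say which dose these libraries had, nor how many oocytes or animals a library represents. What the p-values below weigh is thus the spread among 3 libraries, which may be partly technical. With bulk libraries and no added standard RNA, fewer cells and less RNA per cell cannot be told apart, and all levels are relative to the library.

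Complex I, NADH:ubiquinone oxidoreductase, is the entry point of the respiratory chain. Its peripheral arm reaches into the mitochondrial matrix: the N module at its tip takes electrons from NADH, and the Q module at its base passes them through iron-sulfur clusters to ubiquinone. The membrane arm pumps protons and is built around subunits made from mitochondrial DNA, so that a complete complex needs products of both genomes. The nuclear genes encode the remaining core subunits, which carry the redox centres, many accessory subunits that surround the core, and assembly factors that help to build the complex and are not part of it. Metformin is a biguanide used in type 2 diabetes, and complex I is one of its known targets. Oocytes hold many mitochondria and rely on oxidative metabolism of pyruvate, and a fully grown oocyte is transcriptionally silent, so its transcripts at metaphase are largely those stored during growth.

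The libraries held between 8622281 and 10588292 counted reads, of which the 42 genes took between 0.089% and 0.106%. All 10 oocyte markers examined were present, with a summed level of 23600 to 25000 CPM (read counts scaled to a common library size, with TMM factors) in control and 23800 to 29100 CPM with metformin. The 9 cumulus and granulosa cell markers summed to 37.0 to 42.5 CPM in controls and 38.4 to 49.2 CPM with metformin. Of these, 3 had no read in any library and only 1 passed the filter on low counts used in the tests below. The 4 stroma and endothelium markers summed to 29.5 to 34.1 and 25.1 to 36.2 CPM. The 5 blood markers summed to 29.9 CPM in control replicate 1, with 281 reads of haemoglobin genes, and to at most 0.295 CPM in the other 5 libraries. The part of these cells in the results below was not tested, and without control replicate 1 the median log2 fold change of the complex I genes, 0.08 with all libraries, was 0.12.

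RefSeq promoter windows on GRCm38.p6 (250 bases before to 50 bases after the annotated start) were at hand for 38 of the 42 genes, 40 windows in all. They are shown for 6 genes because these hold letters of factors that are textbook regulators of nuclear respiratory genes and because the genes stand far apart in level. Capitals mark the palindromic NRF1 motif, which they spell out, in the first 3 and AAGATGGC, a YY1 motif, in the last 3. Both strands were searched, and the ETS motif CCGGAAG was also searched and would be in capitals.
Ndufa11 (chr17:56717512-56717811, plus strand): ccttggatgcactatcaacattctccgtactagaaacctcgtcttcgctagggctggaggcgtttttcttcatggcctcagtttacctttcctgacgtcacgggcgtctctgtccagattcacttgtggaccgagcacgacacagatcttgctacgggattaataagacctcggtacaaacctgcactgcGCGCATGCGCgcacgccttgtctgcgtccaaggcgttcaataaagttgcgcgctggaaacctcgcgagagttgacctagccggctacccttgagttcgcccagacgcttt
Ndufaf4 (chr4:24897833-24898132, plus strand): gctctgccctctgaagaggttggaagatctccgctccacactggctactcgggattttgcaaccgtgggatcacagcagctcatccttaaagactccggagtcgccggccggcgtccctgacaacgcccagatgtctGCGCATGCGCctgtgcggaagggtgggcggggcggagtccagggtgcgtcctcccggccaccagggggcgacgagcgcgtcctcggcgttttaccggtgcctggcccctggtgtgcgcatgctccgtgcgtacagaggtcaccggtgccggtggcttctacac
Ndufaf5 (chr2:140170396-140170695, plus strand): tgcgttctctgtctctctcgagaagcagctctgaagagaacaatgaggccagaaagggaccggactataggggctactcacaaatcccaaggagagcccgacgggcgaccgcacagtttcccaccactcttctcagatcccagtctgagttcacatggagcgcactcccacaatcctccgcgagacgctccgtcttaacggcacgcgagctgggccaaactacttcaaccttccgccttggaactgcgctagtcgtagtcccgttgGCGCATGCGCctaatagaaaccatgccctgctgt
Ndufs4 (chr13:114388045-114388344, minus strand): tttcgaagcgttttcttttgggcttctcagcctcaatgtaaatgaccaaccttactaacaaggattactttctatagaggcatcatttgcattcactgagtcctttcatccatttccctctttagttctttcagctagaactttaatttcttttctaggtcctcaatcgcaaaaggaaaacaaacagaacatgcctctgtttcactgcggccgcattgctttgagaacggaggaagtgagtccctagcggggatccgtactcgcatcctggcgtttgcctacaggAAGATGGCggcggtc
Ndufb8 (chr19:44555393-44555692, minus strand): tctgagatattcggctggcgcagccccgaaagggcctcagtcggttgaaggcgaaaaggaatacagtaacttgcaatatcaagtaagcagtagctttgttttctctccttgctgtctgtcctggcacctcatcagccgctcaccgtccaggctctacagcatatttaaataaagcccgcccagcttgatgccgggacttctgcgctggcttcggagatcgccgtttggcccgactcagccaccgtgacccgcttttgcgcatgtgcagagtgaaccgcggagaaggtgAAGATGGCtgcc
Ndufs7 (chr10:80249199-80249498, plus strand): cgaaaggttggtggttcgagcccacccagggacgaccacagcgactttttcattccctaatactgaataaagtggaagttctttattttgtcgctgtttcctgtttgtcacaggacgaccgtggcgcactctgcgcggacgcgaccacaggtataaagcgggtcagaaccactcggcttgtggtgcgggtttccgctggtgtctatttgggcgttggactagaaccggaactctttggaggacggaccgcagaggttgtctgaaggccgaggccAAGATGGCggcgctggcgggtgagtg

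The NRF1 letters were in 3 of the 40 windows (7.5%), those of Ndufa11, Ndufaf4 and Ndufaf5, against 0.97% of all 32851 windows. The YY1 letters were in 7 of 40 (17.5%) against 2.75%, namely those of Ndufa3, Ndufa9, Ndufb8, Ndufc1, Ndufs4, Ndufs6 and Ndufs7. They contain an ATG, and in the 3 windows printed they lie near the 3′ end, past the annotated start. The ETS letters were in 12.5% against 8.86%, AAGGTCA, an ERR motif, in 7.5% against 4.72%, the GC box GGGCGG in 52.5% against 35.66%, and TATAAA in 12.5% against 13.62%. Most of the members' windows were richer in G and C than the median of all windows, 52.7%, with a range from 45.3% (Ndufs4) to 70.7% (Ndufv2). The shares were not adjusted for this. Some of the motifs can overlap, and a match is a description of the window only. Genes with the same letters differed widely in level, as the next paragraphs show: Ndufaf4 stood at 13.5 FPKM (fragments per kilobase of exon and scaled to library size, as deposited) and Ndufaf5 at 0.596 FPKM, and Ndufb8 stood at 11.1 FPKM and Ndufs7 at 0.982 FPKM, each a mean of 6 libraries.

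The transcripts of one enzyme complex were far from equal in level. Levels of different genes were compared per length, with the deposited FPKM values first. Over the 37 genes that passed the filter on low counts, the mean FPKM spanned 399-fold, from 0.291 for Ndufs3 to 116 for Ndufa1. Most reads of Ndufs3 and its pseudogene copy were assigned to the copy, as described below, and without Ndufs3 the span was 207-fold. The choice of length matters here. For 97.7% of 9638 genes, the length behind the FPKM equalled the summed length of all distinct annotated exons within 1%, so that exons overlapping between isoforms were counted more than once. Among the 42 genes this length was a median of 2.35 times and at most 7.81 times the length of the principal transcript (the main annotated isoform). Values are therefore also given as CPM per kilobase of exon union and of principal transcript, on which the 37 genes spanned 265-fold and 181-fold, and 172-fold and 159-fold without Ndufs3.

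The genes of the membrane arm had the highest median level. The median FPKM over the members of the proximal membrane arm, next to the peripheral arm, was 14.5. It was 6.71 in the distal membrane arm, 3.70 in the Q module, 1.79 in the N module and 0.813 among the assembly factors. These medians lay at 12.7 to 15.7, 6.13 to 7.48, 2.17 to 4.08, 1.36 to 2.15 and 0.612 to 1.34 FPKM in single libraries. The ranges over the 6 libraries did not overlap, but 2 of the gaps were very narrow. The Q module reached down to 2.17 and the N module up to 2.15 FPKM. The N module reached down to 1.36 and the assembly factors up to 1.34 FPKM. Medians in single libraries were taken on the FPKM scale only. The same order held per kilobase of exon union, at 20.7, 8.87, 4.63, 3.29 and 1.82 CPM, and per kilobase of principal transcript, at 33.9, 14.3, 6.73, 5.82 and 2.08 CPM. Within each part, single genes differed far more than the parts did.

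**Figure D1:**
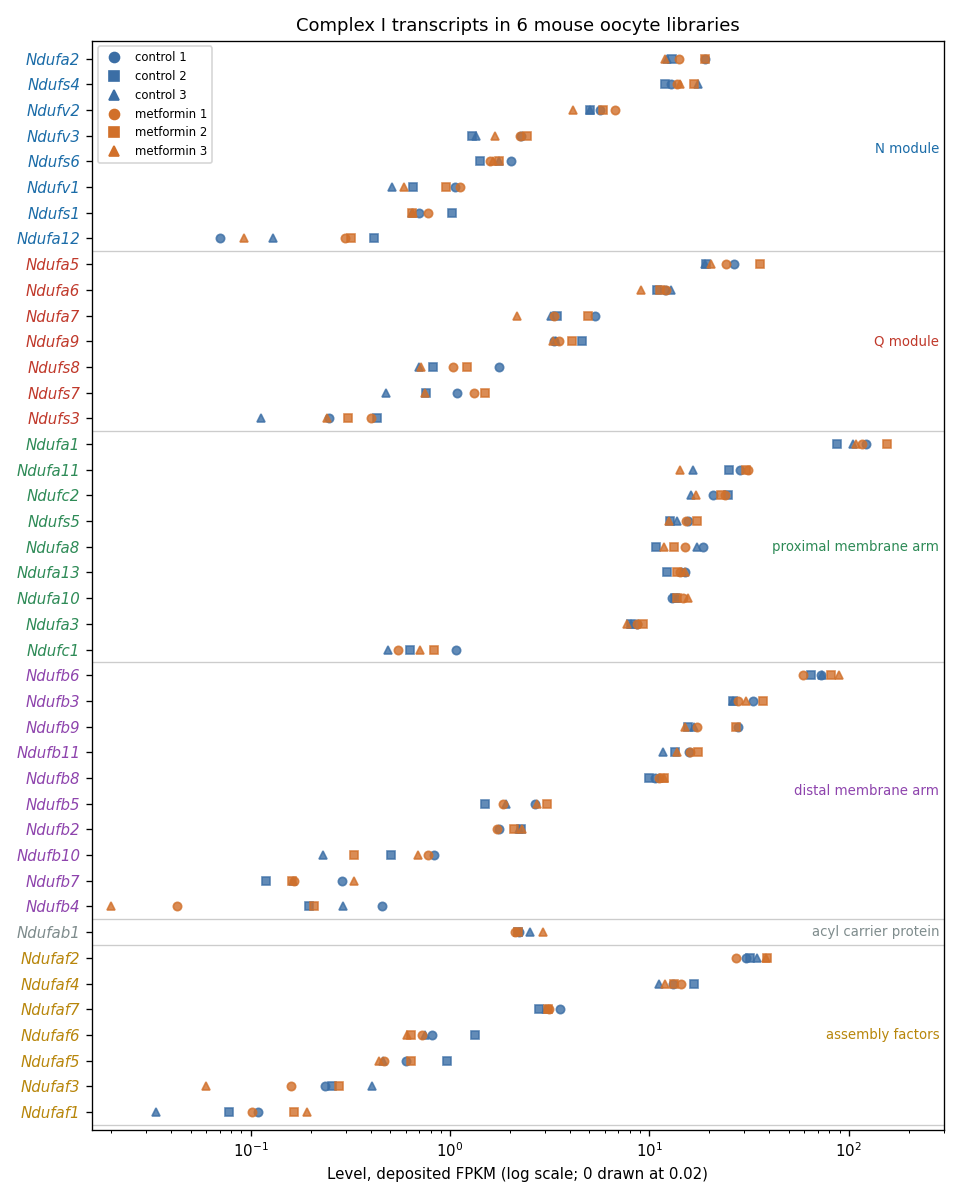
Deposited FPKM (log scale) of the 42 genes in each of the 6 libraries, 1 point per library, grouped by part of the complex and ordered within it by mean. The 6 points of a well-detected gene lie close together, while genes of 1 part spread from below 1 FPKM to 116 FPKM for Ndufa1.

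In the N module the highest level by FPKM was that of Ndufa2, an accessory subunit with a thioredoxin-like fold that stood at a mean of 14.9 FPKM. It had 101, 64 and 71 reads in control and 80, 111 and 73 reads in metformin replicates 1 to 3, with the groups overlapping. Ndufs4, an accessory subunit whose loss in mice is a model of Leigh syndrome, stood at 14.5 FPKM and was above Ndufa2 on the other lengths, at 21.0 against 14.9 CPM per kilobase of exon union and 33.4 against 14.9 CPM per kilobase of principal transcript. The core subunits of the module lay below both. Ndufv2, which carries an iron-sulfur cluster, stood at 5.42 FPKM, Ndufv1, which binds NADH and the flavin, at 0.815 FPKM, and Ndufs1, which holds several iron-sulfur clusters, at 0.740 FPKM. Ndufv3 and Ndufs6, accessory subunits, stood at 1.88 and 1.70 FPKM. Ndufa12 had between 2 and 11 reads in a library and did not pass the filter.

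In the Q module the accessory subunit genes were above the core. Ndufa5, at the interface of the peripheral arm, was highest by FPKM at a mean of 24.3, with 26.65, 19.3 and 19.0 FPKM in control and 24.2, 36.0 and 20.5 FPKM in metformin replicates 1 to 3. Metformin replicate 2 stood above the other libraries. Ndufa6, a LYR-motif protein that holds the acyl carrier protein, stood at 11.4 FPKM, and at 65.1 CPM per kilobase of principal transcript it was above Ndufa5 at 37.55. Ndufa7 stood at 3.73 FPKM and Ndufa9, a subunit of the quinone-site region related to short-chain dehydrogenases, at 3.70 FPKM. The core genes Ndufs8, Ndufs7 and Ndufs3 stood at 1.04, 0.982 and 0.291 FPKM. Ndufs7 carries the last iron-sulfur cluster before ubiquinone, and Ndufs3 had 8, 13 and 4 reads in control and 14, 11 and 9 in metformin libraries.

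Over both modules, the 6 core subunit genes among the members had a median of 0.899 FPKM and the 9 accessory subunit genes one of 3.73 FPKM. These values were 1.73 and 7.35 CPM per kilobase of exon union, and 2.98 and 14.9 CPM per kilobase of principal transcript. The core and accessory genes overlapped: in the N module the core gene Ndufv2 lay above the accessory genes Ndufv3, Ndufs6 and Ndufa12 on the FPKM scale. This division was made after the levels were seen. Accessory genes also reached down to low levels. Ndufb7, for which no copy was found, stood at 0.205 FPKM and 1.62 CPM per kilobase of principal transcript. Ndufb4 was lower still, at 0.199 FPKM, but most reads of Ndufb4 and its pseudogene copies were assigned to the copies, as described below.

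In the proximal membrane arm Ndufa1 stood highest of the 42 genes by FPKM. It encodes a small subunit with 1 membrane helix, on the X chromosome (37187588 to 37191163). Its values were 122, 87.5 and 106 FPKM in control and 116.5, 155 and 109 FPKM in metformin replicates 1 to 3. Control replicate 2 was lowest and metformin replicate 2 highest, and the groups overlapped. Ndufa11 stood at 24.3, Ndufc2 at 21.0, and Ndufs5, Ndufa8, Ndufa13 and Ndufa10 at 14.05 to 14.5 FPKM. Ndufa13 is also known as the cell death regulator GRIM-19, and Ndufa10 is related to nucleoside kinases. Ndufa3 stood at 8.44 FPKM and Ndufc1 at 0.713 FPKM, with 20, 11 and 10 reads in control and 11, 17 and 15 reads in metformin libraries.

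In the distal membrane arm Ndufb6 was highest, at a mean of 73.4 FPKM (chromosome 4, 40270591 to 40279421). Its 2 annotated isoforms overlap, and per kilobase of exon union it was first among the 42 genes, at 123 CPM against 116 CPM for Ndufa1. The order of these neighbours depends on the length: Ndufa1 was above Ndufb6 in 6 of 6 libraries by FPKM and in 3 of 6 per kilobase of exon union. Ndufb6 stood at 72.6, 64.35 and 73.2 FPKM in control and 58.7, 82.0 and 89.35 FPKM in metformin replicates 1 to 3, with the lowest and the highest value both in the metformin group. Ndufb3, Ndufb9, another LYR-motif protein, and Ndufb11 stood at 30.2, 20.0 and 14.7 FPKM. Ndufb8 stood at 11.1 FPKM, and at 81.4 CPM per kilobase of its principal transcript, since 9 annotated isoforms enlarge the length behind its FPKM. Ndufb5 and Ndufb2 stood at 2.30 and 2.07 FPKM, and Ndufb10, a subunit with disulfide bonds, at 0.561 FPKM. Ndufb7 and Ndufb4 did not pass the filter.

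The assembly factor genes ranged from the lowest level of the set to one of the highest. Ndufaf2, a relative of the subunit Ndufa12 that takes its place during assembly, stood at 33.65 FPKM. At 174.5 CPM per kilobase of principal transcript it was highest of all 42 genes on that scale. That transcript has 678 bases, while the exon union has 2978. Per kilobase of exon union Ndufaf2 stood at 39.7 CPM, against 123 CPM for Ndufb6, so its rank depends on the length. The values of Ndufaf2 were 30.6, 32.1 and 34.7 FPKM in control and 27.2, 38.8 and 38.5 FPKM in metformin replicates 1 to 3, the lowest and the highest both in the metformin group. Ndufaf4, which acts on the Q module, stood at 13.5 FPKM and Ndufaf7, a methyltransferase, at 3.12 FPKM. Ndufaf6, which is related to phytoene synthases, and Ndufaf5, a hydroxylase for Ndufs7, stood at 0.813 and 0.596 FPKM. Ndufaf3, the partner of Ndufaf4, had 2 to 13 reads per library and stood at 0.233 FPKM. Ndufaf1, of the assembly complex for the Nd2 part of the membrane arm, had 1 to 6 reads and stood at 0.113 FPKM, the lowest of the 42. Partner proteins thus had unequal transcript levels in every library: Ndufaf4 ranged from 738 to 952 reads and Ndufaf3 from 2 to 13, at principal transcripts of 3632 and 1487 bases.

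**Figure D2:**
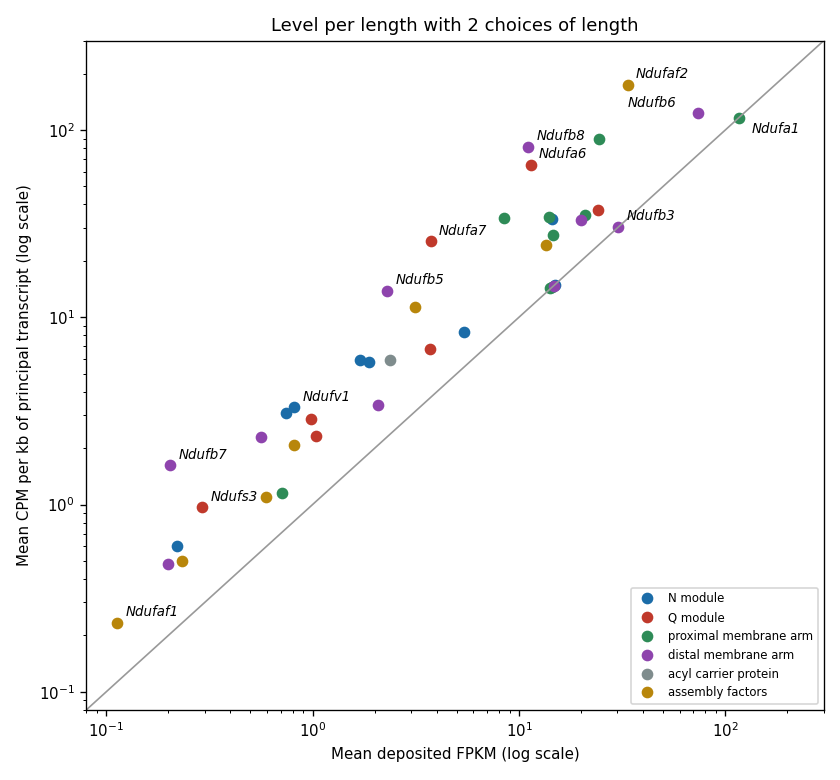
Mean deposited FPKM (horizontal, log scale) against mean CPM per kilobase of principal transcript (vertical, log scale), 1 point per gene, coloured by part of the complex, with the line of equality. Genes with a single isoform lie on the line, and genes with several isoforms, such as Ndufaf2, Ndufb8 and Ndufa7, lie above it.

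Some of the lowest levels belonged to genes with near-identical processed pseudogenes. Of the 42 principal transcripts, 8 matched a gene of the annotation's type processed pseudogene over at least 100 bases at 95% identity or more, and the division of reads between such copies is uncertain. Ndufab1, the mitochondrial acyl carrier protein that binds both arms, had 176, 163 and 218 reads in control and 181, 191 and 266 reads in metformin libraries. Its copies Gm4459 (99.8% identity over 468 bases) and Ndufab1-ps (99.4% over 469 bases) had 690 to 893 and 477 to 646 reads. Alone, Ndufab1 stood at 19.8 ± 2.34 CPM in controls and 21.1 ± 5.39 CPM with metformin (SD, n = 3). Summed with its copies it stood at 161 ± 16.5 and 164 ± 23.2 CPM (SD, n = 3), 7.94-fold more.

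Ndufa12 showed the same with a single copy. Alone it had 2, 11 and 4 reads in control and 9, 10 and 3 reads in metformin libraries, while Gm15920 (99.5% identity over 402 bases) had 44 to 85. The sum stood at 6.35 ± 1.24 CPM in controls and 7.09 ± 2.26 CPM with metformin (SD, n = 3). For Ndufb4, 83.5% of the summed reads were on copies, nearly all on Ndufb4c, which is 100% identical over 390 bases. For Ndufs3, 72.8% were on Gm12251 (98.6% identity over 792 bases) and for Ndufs5, a disulfide-bonded subunit of the intermembrane side, 43.6% were on BC002163. The share was 14.7% for Ndufs6, 11.6% for Ndufb11 and 1.04% for Ndufb3. Ndufaf7 and Ndufc1 matched 193 and 62 other annotated genes of various types, within 167 of 1749 and 133 of 1249 transcript bases. For Ndufaf7 these included 1 transcribed processed pseudogene, over 103 bases at 95.1% identity. These matches were not summed.

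**Figure D3:**
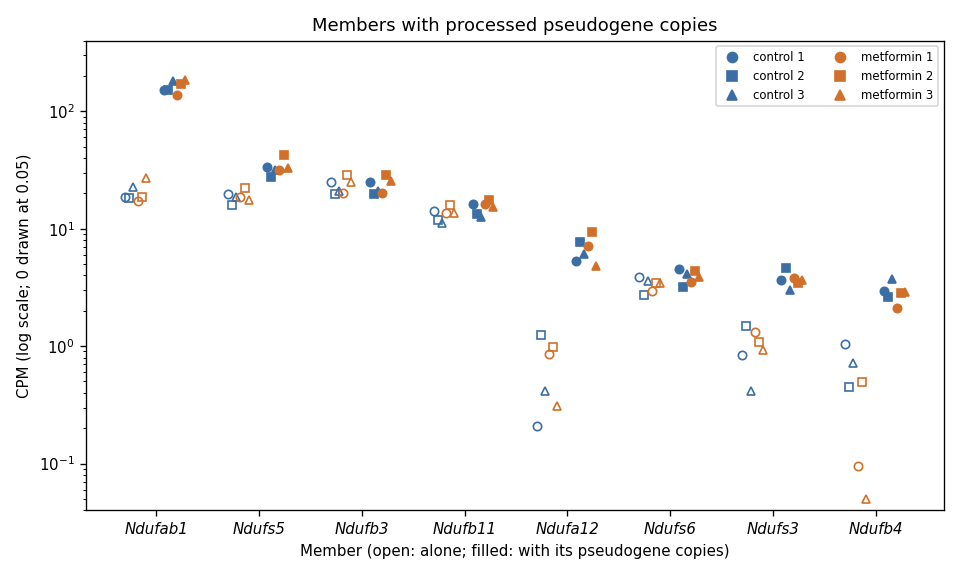
CPM (log scale) of the 8 genes with processed pseudogene copies in each library, for the gene alone (open symbols) and summed with its copies (filled symbols). The sums of Ndufab1, Ndufa12, Ndufb4 and Ndufs3 lie clearly above the genes alone, and those of Ndufb3 barely differ from it.

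Reads could also come from neighbours, since the library kit does not keep the strand. For 7 genes at least 10% of the exon bases lie in an exon of another gene. For Ndufaf2 it was 65.6%, all in the lincRNA B230220B15Rik, which had 0 reads in all 6 libraries, and for Ndufb6 39.0%, in Smim27, which had 3 to 7 reads. Ndufb5 and Ndufa2 share 12.3% and 11.5% of their exon bases with Mrpl47 (433 to 602 reads) and Tmco6 (518 to 723 reads), and their counts are uncertain for that reason. How reads in shared exons were assigned is not known, so few reads on a neighbour do not show where such reads came from. This holds for Ndufaf2 and Ndufb6 as well.

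Metformin libraries were then compared with control libraries. None of the tested complex I genes was called, which is near the share over all genes and is no result particular to this set. Of 37 genes tested, 0 passed an adjusted p of 0.05 by edgeR's quasi-likelihood test with Benjamini-Hochberg adjustment, where 0.0391% of all 12793 genes did (5 genes, 0.0235% higher and 0.0156% lower), and 0 had an unadjusted p under 0.05, where 1.5% of all genes did (192 genes). DESeq2 and limma-voom also called 0, but DESeq2 gave no adjusted p for Ndufs7, Ndufaf5 and Ndufaf6, among others possibly. By fitted direction 24 were higher and 13 lower in metformin libraries, against 52.5% higher among all genes. The median log2 fold change was 0.08, with quartiles of -0.04 and 0.17. Over all genes tested the median was 0.01, with quartiles of -0.11 and 0.13.

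The precision was enough to bound most of these differences. The median standard error (SE) was 0.216 on the log2 scale, and for 32 of 37 genes the 95% interval of the fold change lay within 2-fold in both directions. For 15 genes it lay within 1.5-fold. The intervals of Ndufs3, Ndufs7, Ndufb10, Ndufaf5 and Ndufaf6, all at low counts, reached beyond 2-fold. A miss of the threshold does not show that levels were equal.

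**Figure D4:**
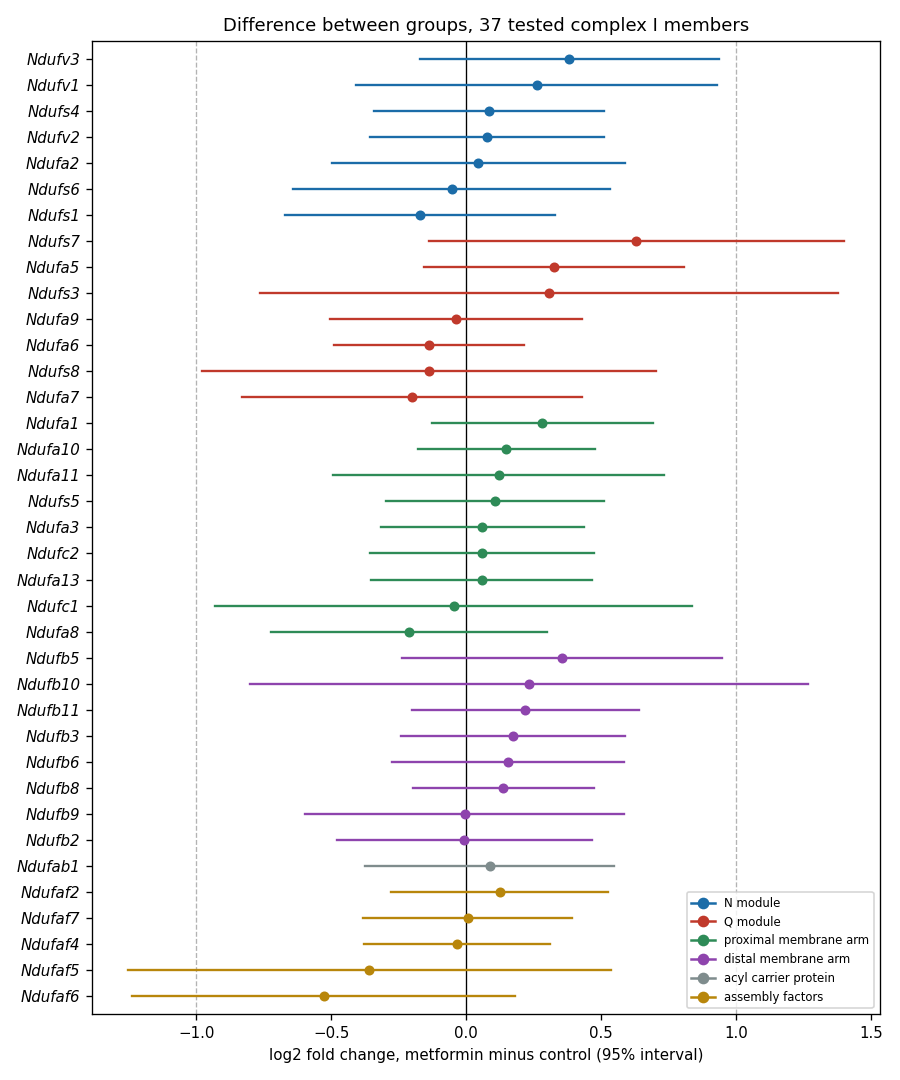
Log2 fold change of metformin against control with its 95% interval for the 37 tested genes, coloured by part of the complex; dashed lines mark 2-fold. All intervals cross 0, and 5 of them, of genes with few reads, cross a dashed line.

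In the N module 5 of 7 tested genes were fitted higher and 2 lower, with a median of 0.08. Ndufv3 had the smallest p of the module. It stood at 10.7, 6.11 and 6.82 CPM in controls and 10.3, 11.8 and 8.80 CPM in metformin replicates 1 to 3. Control replicate 1 was as high as the metformin libraries, so the groups overlapped, with a log2 fold change of 0.38 (SE 0.254, interval -0.17 to 0.94, adjusted p = 1.00, edgeR). Leaving out 1 library gave values from 0.23, without control replicate 2, to 0.67, without control replicate 1. Ndufv1, the NADH-binding core subunit, stood at 7.04, 4.30 and 3.62 CPM in controls and 7.13, 6.48 and 4.30 CPM with metformin. In both groups replicate 1 was highest and replicate 3 lowest, and the log2 fold change was 0.26 (SE 0.306). It was 0.59 without control replicate 1 and 0.07 without control replicate 3.

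In the Q module 3 of 7 genes were fitted higher and 4 lower, with a median of -0.04. Ndufs7 (chromosome 10, 80249121 to 80256794) had the largest fitted difference of the 37 genes. Its counts were 29, 19 and 14 in control and 38, 44 and 23 in metformin libraries, or 3.05, 2.15 and 1.45 against 3.61, 4.32 and 2.35 CPM. Metformin replicate 3 lay below control replicate 1, and all other metformin values lay above all control values. The log2 fold change was 0.63 (SE 0.351, interval -0.14 to 1.4, unadjusted p = 0.0986, adjusted p = 1.00, edgeR). Leaving out 1 library gave values between 0.40 and 0.93. Ndufa5 stood at 35.2, 25.4 and 26.9 CPM in controls and 30.9, 48.7 and 30.0 CPM with metformin. Its log2 fold change was 0.32 (SE 0.220), and leaving out 1 library gave 0.06, without metformin replicate 2, to 0.48.

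In the proximal membrane arm 7 of 9 genes were fitted higher and 2 lower, with a median of 0.06. Ndufa1 stood at 49.9, 35.7 and 46.3 CPM in controls and 46.0, 64.9 and 49.5 CPM with metformin. Only metformin replicate 2 lay above all control libraries, and the log2 fold change was 0.28 (SE 0.187). Leaving out 1 library gave 0.12, without metformin replicate 2, to 0.38. Ndufa10 (chromosome 1, 92439010 to 92473860) had the smallest SE of the 37 genes. It stood at 61.7, 63.9 and 70.5 CPM in controls and 67.7, 67.1 and 82.5 CPM with metformin, a log2 fold change of 0.15 (SE 0.150, interval -0.18 to 0.48). Metformin replicate 3 was highest, and leaving out 1 library gave 0.04, without metformin replicate 3, to 0.21. Ndufa3, at 17.1 ± 0.710 and 17.8 ± 1.17 CPM (SD, n = 3), gave 0.06 (SE 0.172).

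In the distal membrane arm 6 of 8 tested genes were fitted higher and 2 lower, with a median of 0.17. Ndufb5 stood at 16.9, 9.5 and 12.9 CPM in controls and 11.2, 19.9 and 19.2 CPM with metformin. Metformin replicates 2 and 3 were highest and metformin replicate 1 lay among the controls, with a log2 fold change of 0.36 (SE 0.270). Without control replicate 2 the value was 0.17 and without metformin replicate 1 it was 0.58. Ndufb11, an X-linked subunit gene, stood at 14.1, 11.9 and 11.2 CPM in controls and 13.7, 15.9 and 13.6 CPM with metformin. Control replicate 1 overlapped the metformin group, and the log2 fold change was 0.22 (SE 0.192), or 0.14 to 0.32 with 1 library left out. Ndufb6, the most abundant gene of this arm, stood at 76.6 ± 7.57 and 85.4 ± 23.0 CPM (SD, n = 3). Ndufab1 had a log2 fold change of 0.09 (SE 0.211), 0.03 when summed with its copies, and -0.14 without metformin replicate 3.

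Among the assembly factors 2 of 5 tested genes were fitted higher and 3 lower, with a median of -0.03. Ndufaf6 (chromosome 4, 11051045 to 11076205) was the only member whose groups did not overlap, where 5.63% of all genes tested had no overlap and 2.79% none with metformin lower. Its counts were 21, 32 and 21 in control and 20, 18 and 18 in metformin libraries. In CPM these were 2.21, 3.62 and 2.17 against 1.90, 1.77 and 1.84, so the gap between the nearest libraries was small beside that within the control group. The log2 fold change was -0.53 (SE 0.324, interval -1.24 to 0.18, adjusted p = 1.00, edgeR). Leaving out 1 library gave -0.66 to -0.25, the latter without control replicate 2. Ndufaf5 stood at 1.26, 2.04 and 1.03 CPM in controls and 0.951, 1.375 and 1.02 CPM with metformin. Control replicate 2 was again highest, and its log2 fold change was -0.36 (SE 0.409). Leaving out 1 library gave -0.55 to -0.04, the latter without control replicate 2. Ndufaf2, the abundant factor, stood at 113 ± 11.7 and 123 ± 29.9 CPM, and Ndufaf4 at 89.4 ± 16.3 and 87.3 ± 2.49 CPM (SD, n = 3).

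The 5 genes that did not pass the filter were Ndufa12, Ndufb4, Ndufb7, Ndufaf1 and Ndufaf3, with 0 to 17 reads in a library. Ndufb4 had 10, 4 and 7 reads in control and 1, 5 and 0 reads in metformin libraries. The 5 reads of metformin replicate 2 lay above the 4 of control replicate 2. Fitted without the filter, its log2 fold change was -1.86 (SE 0.864, unadjusted p = 0.0374, adjusted p = 0.997, edgeR), in a fit in which 6 of 26025 genes passed. Summed with its copies it was -0.25 (SE 0.291). Ndufaf3 had 7, 7 and 13 reads against 5, 9 and 2, Ndufaf1 3, 2 and 1 against 3, 5 and 6, and Ndufb7 13, 5 and 8 against 8, 8 and 17. At this depth 3 reads corresponded to 0.285 to 0.339 CPM. The SE of the 5 genes without the filter was 0.521 to 0.949, so differences in their own reads were poorly bounded. For Ndufa12 and Ndufb4 most reads of gene and copies were on the copies. Summed with its copy, Ndufa12 had a log2 fold change of 0.16 (SE 0.279).

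Many complex I genes were lowest in control replicate 2 or highest in metformin replicate 2. Summed over the 42 genes, the level was 945.5, 869 and 930 CPM in controls and 875, 1064 and 993 CPM in metformin replicates 1 to 3. Metformin replicate 2 was highest and control replicate 2 lowest, and metformin replicate 1 lay below control replicates 1 and 3. The assembly factor genes alone summed to 215, 241 and 227.5 CPM in controls and 201, 247 and 255 CPM with metformin. In this sum control replicate 2 was thus the highest control. Of the tested assembly factor genes, that held for Ndufaf4, Ndufaf5 and Ndufaf6. Among the controls Ndufaf2 was highest in replicate 3, and Ndufaf7 was lowest in replicate 2. Of the 37 tested genes, 15 had their lowest value in control replicate 2, where 15.9% of all genes tested did, and 11 had their highest in metformin replicate 2, where 13.6% did. Relative to each gene's own mean, the median deviation was -0.16 in control replicate 2 and 0.14 in metformin replicate 2 on the log2 scale. Over all genes it was 0.00 in each of these libraries. Scaling keeps that median near 0 in every library (0.003 to 0.014). It does not show how far a set of 37 genes usually strays. Without metformin replicate 2 the median log2 fold change of the members was 0.01, and without control replicate 2 it was 0.04.

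**Figure D5:**
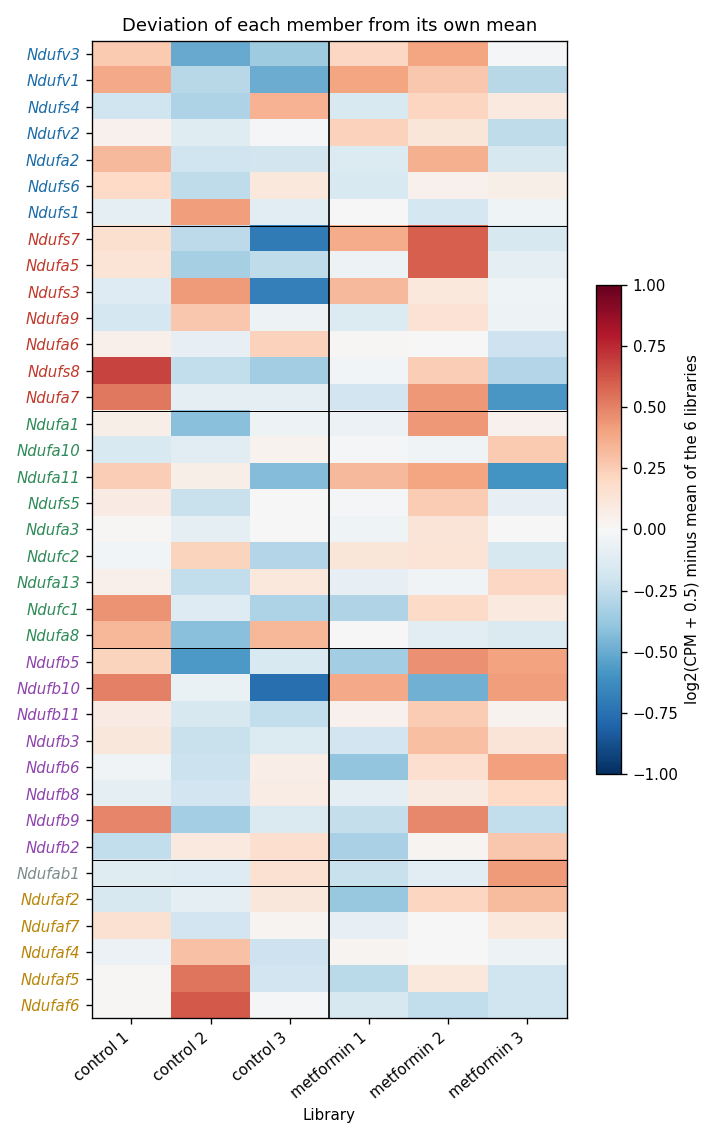
Deviation of log2(CPM + 0.5) from the gene's mean over the 6 libraries (colour scale from -1 to 1), 37 tested genes listed by part of the complex and libraries in columns, with the groups divided by a vertical line. Control replicate 2 is below the mean for most subunit genes and metformin replicate 2 above it, while Ndufaf5 and Ndufaf6 are high in control replicate 2.

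Some genes had the same replicate number at one end of both groups, at shares above those of all genes for some positions and below them for others. For 9 of the 37 genes (24.3%) replicate 3 was the lowest library of both groups, against 17.2% of all genes tested. These were Ndufv1, Ndufs3, Ndufs7, Ndufs8, Ndufa7, Ndufa11, Ndufc2, Ndufb11 and Ndufaf4, 4 of them core subunits. Ndufa11 stood at 56.1, 49.3 and 34.9 CPM in controls and 59.4, 62.1 and 31.1 CPM in metformin replicates 1 to 3, so the step to replicate 3 was larger than the difference between groups. For 7 genes, among them Ndufb6, Ndufb8 and Ndufaf2, replicate 3 was the highest of both groups, 18.9% against 17.3% of all genes. Replicate 1 was lowest in both groups for 8.11% against 12.7% and highest for 5.41% against 12.7%. Replicate 2 was lowest in both for 0 genes against 9.86% and highest for 8.11% against 8.72%. The labels do not say whether a number marks a shared day or batch.

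The other genes of complex I were like the members in this comparison. Of a further 15 nuclear subunit and assembly genes found in the table, 12 were tested and 0 passed (adjusted p = 1.00 for each, edgeR), 8 fitted higher and 4 lower, with a median of 0.07. The 2 with the smallest unadjusted p were Ndufaf8, the partner of Ndufaf5, and Dmac2, a factor for the distal membrane arm. Ndufaf8 stood at 4.63, 6.33 and 6.82 CPM in controls and 5.90, 6.48 and 8.49 CPM with metformin, and Dmac2 at 15.9, 14.6 and 16.8 against 13.7, 15.7 and 12.8 CPM. The groups overlapped for all 12. Ecsit, Foxred1 and Lyrm2 did not pass the filter.

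The 7 complex I genes of mitochondrial DNA encode the core of the membrane arm, and 0 of them passed, with 5 fitted higher, 2 lower and a median of 0.07. Their levels lay between 385 FPKM for mt-Nd4l and 3368 FPKM for mt-Nd1, above that of any nuclear member in these libraries. The kit primes on poly(A) tails, and tails of mitochondrial mRNA are short, which limits a comparison with nuclear genes. Tail lengths were not measured here, so the comparison of levels among nuclear genes may be limited in the same way. mt-Nd1 stood at 3027, 3146 and 3729 CPM in controls and 2433, 3554 and 3587 CPM with metformin, with metformin replicate 1 lowest and control replicate 3 highest.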

How the data were processed

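Libraries were made with the SMART-Seq HT kit, per the labels' protocols, with CASAVA 1.8, TopHat2 2.0.6 and mm10 listed in the submitters' processing notes. How reads were counted, and how reads matching several genes were treated, is not given in the sources used here. Per the file headers, each gene and library has the deposited raw count and, beside it, the FPKM computed by the authors. Columns were matched to samples by title. Symbols came from GENCODE M21 (55141 of 55487 identifiers), as did coordinates on GRCm38, isoforms and lengths.

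Counts were tested with edgeR 4.0.16 (R 4.3.3): quasi-likelihood, robust fit, TMM scaling, filterByExpr with min.count 10, no covariate besides group, Benjamini-Hochberg adjustment over all 12793 genes tested, threshold 0.05. The SE is the log2 fold change divided by the root of F. FPKM values entered no test. Alternatives used DESeq2 1.42.0 and limma 3.58.1, other scalings and filters, a replicate block and leaving out each library. Copies were sought with blastn 2.17.0 (95% identity). No library was a repeat of another: all pairs within a group differed beyond counting noise. Counting floors (3 reads) cover counting error only, as there are no molecular identifiers.

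Members and lists were chosen with earlier results of these data known. Values in every library are given, per part of the complex, for the highest and the lowest level and the 2 smallest p, and for members without overlap or below the filter.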

Additional observations from a re-analysis of the deposited data

How the results depend on the processing

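Of the complex I genes, 0 were called under any of the 16 alternatives run, the lowest adjusted p of a gene named for its difference being 0.997. DESeq2 gave no adjusted p for 3 named genes, Ndufs7, Ndufaf5 and Ndufaf6. Still, the 11 genes named for their difference were fitted by it. These 11 genes kept their fitted direction in each alternative that tested them (6 of them at a mean of at least 10 CPM), except Ndufab1, which ranged from -0.14 to 0.21 when 1 library was left out. The median log2 fold change of the members stayed within 0.06 to 0.08 under other scalings, tools, filters and the sum with pseudogene copies, and ranged from 0.01 to 0.12 when 1 library was left out. Over all genes, 5 were called; DESeq2 called 10, and leaving out 1 library gave 5 to 12. The cause was not tested. Same-numbered libraries of the groups deviated together only in part (r = 0.144, 0.044 and 0.200 over 12793 genes for numbers 1, 2 and 3), although each library correlated best with its own number; with the replicate block 7 genes were called, 0 of them members, and the members' median was 0.07. Levels per length depend on the length, by construction. From the FPKM values, the medians moved to 3.29 (exon union) and 5.82 (principal transcript, chosen after seeing the data) for the N module, 4.63 and 6.73 for the Q module, 20.7 and 33.9 for the proximal and 8.87 and 14.3 for the distal membrane arm, 2.97 and 5.88 for Ndufab1 and 1.82 and 2.08 for the assembly factors. The sum with pseudogene copies was also chosen after seeing the data. Depth limits the genes with under about 20 reads.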
